A study of Homo sapiens with 7 samples.

Results

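The hexose transporter genes of HK-2 cells, 10 in number, were followed through the knockdown of one of them, SLC2A2, which encodes the glucose transporter GLUT2. The genes were taken by symbol from the count table and make up 10 of its 33694 rows: 9 members of the SLC2A family (SLC2A1, SLC2A2, SLC2A3, SLC2A4, SLC2A6, SLC2A8, SLC2A11, SLC2A12 and SLC2A13) and SLC50A1. HK-2 is an established line grown from proximal tubule epithelium of a human kidney and immortalised with viral genes, so all 7 libraries come from 1 line. The cells, labelled WT, received 50 nM of an siRNA with a scrambled sequence (4 libraries, replicates 1 to 4) or, labelled GLUT2-KD, 50 nM of siGLUT2 (3 libraries, replicates 2 to 4), and RNA was taken 96 h later. Both groups were thus transfected, and cells without transfection were not analysed here. The labels call the replicates biological but do not say whether they were separate cultures or days, so p-values measure only the spread between these libraries.

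Facilitative hexose carriers of the SLC2A family let sugars move down their gradient through a single protein, without sodium or energy. In the proximal tubule, sodium-coupled carriers take glucose from the urine at the apical side, and GLUT2 with GLUT1 lets it leave to the blood at the basolateral side. SLC50A1 belongs to another family, the SWEETs, which pass sugars in either direction and are best known from plants.

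Total counts ran from 5654957 to 8455963 in scrambled and from 5881366 to 6914302 in siGLUT2 libraries. The siGLUT2 libraries held fewer genes with a count (13433 to 13891 against 14844 to 15036) and differed more from each other, with a mean chi-square per gene between pairs of 10 to 17.7 against 4.84 to 8.12. Mitochondrial genes took 7.04% to 7.56% of the counts in siGLUT2 and 4.91% to 5.53% in scrambled libraries, without overlap. Of 18 proximal tubule markers, 11 lay below 1 CPM (counts per 1000000, scaled by TMM) in both groups and 5 (LRP2, SLC22A6, SLC22A8 and SLC5A12 among them) had no count, while PAX8, DPP4, GGT1, MME, SLC4A4 and MIOX were present. The summed level of these 18 was 338 to 364 CPM in scrambled and 365 to 370 CPM in siGLUT2 libraries. PAX8 led this sum, at 185 to 200 CPM in scrambled and 165 to 184 CPM in siGLUT2 libraries, lower without overlap but not called. Of the 6 tested GGT1 and MME rose, where 13.9% of all tested genes did. Among 6 epithelial markers 4 fell (KRT8, KRT18, KRT19 and KRT7), where 14.4% of all tested genes did, and the sum of the 6 was 1130 to 1240 CPM and 635 to 767 CPM. Markers of other nephron segments summed to at most 1.08 CPM and those of endothelium to at most 1.15 CPM in any library. The 6 leukocyte markers summed to 13.8 to 19.1 CPM and 25.9 to 28.5 CPM, almost all of it CD68, with PTPRC, CD3E and LYZ at 0. The 6 fibroblast and pericyte markers summed to 13.9 to 21.1 CPM and 21.8 to 27.7 CPM, led by COL1A1, with COL3A1 at 0. The part of these differences in the results was not tested. In bulk RNA, fewer cells with a transcript and less of it per cell cannot be told apart.

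The sequence of siGLUT2 is not given in the labels, so only the longest exact runs shared by SLC2A2 and the other transporters can be given. A perfect match needs about 19 bases in a row. The longest runs that the coding transcripts of SLC2A2 shared with those of the other 9 genes had 10 to 17 bases (GENCODE release 29, GRCh38, read 5′ to 3′). The runs of 4 genes are shown, the 3 called transporters other than SLC2A2 itself and SLC2A4, which was not called. They are in lower case throughout since every base is shared.
SLC2A3: tccagctaccgacagcc
SLC2A4: actgggaccctggt
SLC2A1: caccaaagatatt
SLC50A1: ggggacacac
The 17-base run with SLC2A3 lay in the coding sequence of both genes, and the shortest run was the one with SLC50A1. No 19-base stretch of an annotated coding transcript of SLC2A2 therefore stood in an annotated coding transcript of the other 9 genes. Other transcripts and matches with mismatches were not searched. Whether siGLUT2 acts on these genes directly was not tested.

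A pair of words of 7 bases, GACCTTA and ACCTTAA, had been linked to falling transcripts in earlier results on these same fold changes, and a match is only a description. On the transcript strand, either word stood in the 3′ UTR of 2439 of 19684 genes (12.4%) and in the coding sequence of 1697 (8.62%), and the words overlap each other. Tested genes with a word in a 3′ UTR of at least 50 bases had a median log2 fold change of -0.11 (n = 1756, of which 21.6% fell). The others had a median of 0.02 (n = 9800, 13.5% fell). Because the words were linked to these same fold changes beforehand, this difference is a description and no support for that link. The length of the 3′ UTR was not held constant. Among the 10 transporters, 1 match was found in any annotated coding transcript. It was GACCTTA in the coding sequence of SLC2A2 itself, at chr3:170998087-170998093 on the minus strand, shown with the word in capitals.
SLC2A2: ggacttctgtgGACCTTAtgtgtttttcct
Of this 30-base window the first base is the last of exon 10, and the other 29 lie in exon 11 of 11. The 5 coding transcripts of SLC50A1, and those of SLC2A1 and SLC2A3, held neither word.

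Among the 9 transporters other than the siRNA target, 1 rose and 2 fell with siGLUT2. All 10 genes passed the filter on low counts, but SLC2A2 did so only through its scrambled libraries and so had to differ; its levels are given as a description and it is left out of these counts. Changes are log2 fold changes of siGLUT2 over scrambled ± SE. The SE is the size of the change divided by the square root of the F statistic of edgeR, not a separate estimate. An adjusted p comes from the quasi-likelihood test of edgeR, adjusted by Benjamini-Hochberg across the 12404 genes that were tested and called below 0.05. Over all genes 28.3% were called (13.9% higher, 14.4% lower), so 3 of 9 is close to the background. In 4 of the 9 genes the CPM ranges were apart (1 higher, 3 lower), where 35.1% of all tested genes had no overlap. The median change was -0.29 over the 9 genes and -0.0029 over all genes tested.

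**Figure D1:**
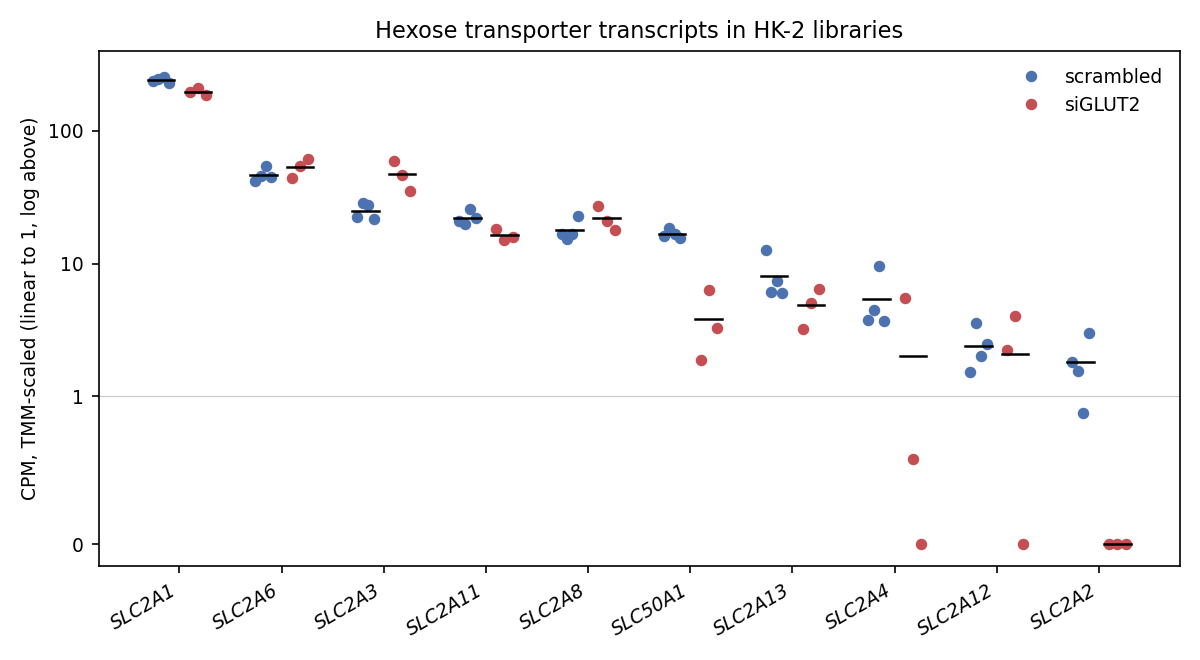
Level of each hexose transporter in CPM (TMM-scaled; the axis is linear up to 1 and logarithmic above). Each point is 1 library, scrambled in blue (n = 4) and siGLUT2 in red (n = 3), and black bars are means. SLC2A1 lies at 187 to 254 CPM in every library, far above the rest, SLC2A3 is higher and SLC50A1 lower in all 3 siGLUT2 libraries, and SLC2A2 is at 0 in these.

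SLC2A2 (ENSG00000163581, GRCh38 chromosome 3, 170996348 to 171026750, minus strand) is the targeted gene, a low-affinity glucose and fructose carrier. It was counted 13, 13, 7 and 17 times in scrambled replicates 1 to 4 and 0 times in siGLUT2 replicates 2, 3 and 4. In CPM the scrambled values were 1.82, 1.56, 0.885 and 3.00, so the transcript was scarce before the knockdown. The groups did not overlap, and no p is given for the reason stated above. A floor of 3 counts over the siGLUT2 group corresponds to 0.156 CPM, which puts SLC2A2 at least 11-fold lower, or 8.18-fold at the low end of the exact Poisson 95% interval of the pooled scrambled level (1.28 to 2.27 CPM). Intervals and floors cover counting error of independent reads only.

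Counts of 2 scarce relatives were also 0 in every siGLUT2 library. SLC2A9, a urate carrier, was counted 6, 1, 10 and 6 times in scrambled and 0 times in all 3 siGLUT2 libraries. SLC2A5, the fructose carrier GLUT5, had 1, 6, 0 and 6 counts in scrambled and 0 in all siGLUT2 libraries. Both were below the filter and have no test. SLC2A10, another scarce relative, did not share this: it had 26, 18, 6 and 6 counts in scrambled and 0, 42 and 10 in siGLUT2 libraries. The share of equally scarce genes without a count in siGLUT2 libraries was not measured. The siGLUT2 libraries also had fewer detected genes, as given above. The part of that lower detection in the zeros of SLC2A2 was not tested.

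SLC2A1 (ENSG00000117394, chromosome 1, 42925375 to 42959176, minus strand) encodes GLUT1, the basal glucose carrier of most cells. Its level was 238, 245, 254 and 230.0 CPM in scrambled replicates 1 to 4 and 195, 210.0 and 187 CPM in siGLUT2 replicates 2 to 4. Every siGLUT2 library lay below every scrambled one, and the replicates were close, with coefficients of variation of 4.2% and 6.03%. The fall was small, -0.29 ± 0.09 (adjusted p = 0.0161 by edgeR), which is a level that fell by 18.5%. Without scrambled replicate 3, the library with the highest level, the change was -0.27 and the adjusted p 0.053.

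SLC2A3 (ENSG00000059804, chromosome 12, 7919230 to 7936275, minus strand) encodes GLUT3, a high-affinity glucose carrier best known from neurons. It was the 1 member that rose, from 22.6, 28.4, 27.4 and 21.5 CPM in scrambled to 58.8, 46.8 and 35 CPM in siGLUT2 replicates 2, 3 and 4. The lowest siGLUT2 library was above the highest scrambled one, but the siGLUT2 libraries were spread over a wide range. The change was 0.90 ± 0.19 (1.87-fold, adjusted p = 0.00104 by edgeR) and stayed called in all 14 alternatives tried, at 0.71 to 1.07. The 3′ UTRs of SLC2A3 and its near copy SLC2A14 share a run of 203 bases, longer than the 100 sequencing cycles, so reads there cannot be told apart; SLC2A14 had no count in any library.

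Within a library, the 2 glucose carriers can be set against each other without any scaling. There were 10.6, 8.61, 9.25 and 10.7 SLC2A1 counts per SLC2A3 count in scrambled replicates 1 to 4 and 3.31, 4.48 and 5.33 in siGLUT2 replicates 2 to 4. The ratio was lower in each siGLUT2 library than in any scrambled library, with means of 9.78 ± 1.01 (SD, n = 4) and 4.37 ± 1.01 (SD, n = 3). SLC2A1 remained the more counted gene in all 7 libraries.

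SLC50A1 (ENSG00000169241, chromosome 1, 155135344 to 155138857, plus strand) encodes the human SWEET protein, placed at the Golgi and the plasma membrane. It was counted 115, 155, 132 and 88 times in scrambled and 11, 44 and 21 times in siGLUT2 libraries. In CPM this was 16.1, 18.6, 16.7 and 15.5 against 1.88, 6.34 and 3.28, so scrambled libraries were tight and the siGLUT2 libraries all far lower. The fall of -2.11 ± 0.36 (0.232 of the scrambled level, adjusted p = 0.000107 by edgeR) was called in all 14 alternatives, at -2.68 to -1.79. No other annotated gene overlapped it.

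**Figure D2:**
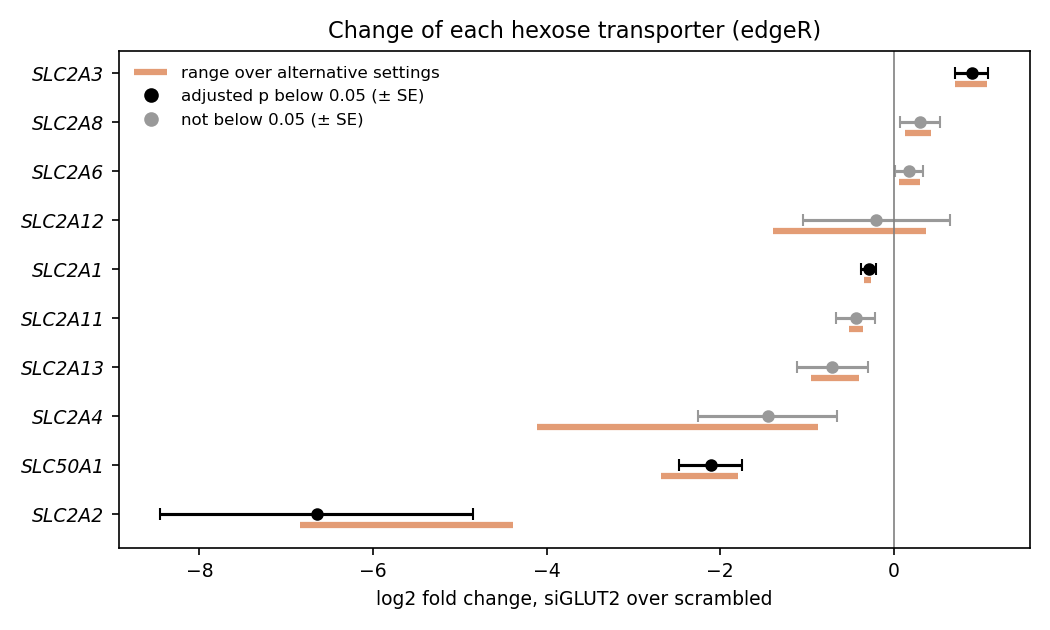
Log2 fold change of siGLUT2 over scrambled (x axis) for each of the 10 transporters, with points and bars as edgeR estimate ± SE, black where the adjusted p was below 0.05. Orange bars give the range over the alternative settings. Only the bar of SLC2A12 crosses 0, so those of other genes that were not called also stay on one side. The bar of SLC2A4 reaches -4.11. The SLC2A2 estimate depends on a prior count because its siGLUT2 counts are 0, and its test is not used because it passed the filter through scrambled libraries alone.

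The remaining 6 transporters did not pass the test. SLC2A6 (ENSG00000160326, chromosome 9, 133471095 to 133479137, minus strand) encodes GLUT6, a carrier of lysosomal membranes. Its level was 41.9, 45.3, 54.6 and 45.2 CPM in scrambled and 43.8, 54.0 and 61.0 CPM in siGLUT2 libraries, with overlapping groups (0.18 ± 0.16, adjusted p = 0.436 by edgeR). An interval of 2 SE on either side ran from -0.14 to 0.49. SLC2A8 (ENSG00000136856, chromosome 9, 127397138 to 127408424, plus strand) encodes GLUT8, another carrier held inside the cell by a dileucine signal. It was at 16.8, 15.2, 16.8 and 22.8 CPM and at 26.9, 21 and 18.0 CPM, again overlapping (0.30 ± 0.23, interval -0.16 to 0.76, adjusted p = 0.364 by edgeR).

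SLC2A11 (ENSG00000133460, chromosome 22, 23856703 to 23886309, plus strand) encodes GLUT11, a glucose and fructose carrier. It was at 21, 19.8, 25.9 and 22.2 CPM in scrambled and 18.2, 15.1 and 15.9 CPM in siGLUT2 libraries. All 3 siGLUT2 values were below the scrambled ones, yet the change of -0.44 ± 0.22 had an adjusted p of 0.147 by edgeR (0.11 to 0.321 over the alternatives). The exons of SLC2A11 overlap 431 bases of ENSG00000251357 on the same strand. On the other strand they overlap 329 bases of ENSG00000272973 and 1040 bases of ENSG00000279467. These overlapping genes had no count. SLC2A13 (ENSG00000151229, chromosome 12, 39755021 to 40106089, minus strand) encodes the proton-coupled myo-inositol carrier HMIT, which does not carry glucose. Its levels were 12.6, 6.12, 7.34 and 6.00 CPM and 3.24, 5.04 and 6.41 CPM, and they overlapped (-0.71 ± 0.41, interval -1.52 to 0.11, adjusted p = 0.213 by edgeR).

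SLC2A4 (ENSG00000181856, chromosome 17, 7281667 to 7288257, plus strand) encodes GLUT4, the insulin-responsive carrier of muscle and fat. It was counted 27, 37, 76 and 21 times in scrambled and 32, 4 and 0 times in siGLUT2 replicates 2, 3 and 4. One siGLUT2 library lay within the scrambled range and the other 2 far below it. The change of -1.45 ± 0.80 did not pass (adjusted p = 0.19 by edgeR), and without siGLUT2 replicate 2 it was -4.11, where the gene passed the filter through scrambled libraries alone. On the other strand, its exons overlap 6 bases of YBX2 and 117 bases of ENSG00000263342, which had no count.

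SLC2A12 (ENSG00000146411, chromosome 6, 133988697 to 134052636, minus strand) encodes GLUT12. Its counts were 11, 30, 16 and 14 in scrambled and 13, 28 and 0 in siGLUT2 libraries, and in CPM siGLUT2 replicate 2 lay within the scrambled range of 1.54 to 3.60, replicate 3 above it at 4.03 and replicate 4 at 0 (-0.20 ± 0.85, adjusted p = 0.89 by edgeR). Its exons overlap 1736 bases of TBPL1 on the opposite strand. TBPL1 was counted 66, 83, 93 and 78 times in scrambled and 120, 150 and 119 times in siGLUT2 libraries, and it rose (0.86 ± 0.25, adjusted p = 0.0116 by edgeR). With no strand setting given, reads of the 2 genes there cannot be told apart.

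The order of the levels was led by SLC2A1 in both groups. Per 1000 bases of the longest coding transcript, mean levels in scrambled libraries were 65.9 ± 2.77 CPM for SLC2A1, 18.5 ± 2.17 for SLC2A6 and 12.9 ± 1.02 for SLC50A1 (SD, n = 4). None of these 3 overlapped the next gene down. Then came SLC2A8, SLC2A11 and SLC2A3 at 8.24, 6.81 and 6.38 CPM per 1000 bases, neighbours whose ranges overlapped, and SLC2A4, SLC2A13, SLC2A2 and SLC2A12 at 1.57 to 0.539, also overlapping. In siGLUT2 libraries SLC2A3 was the third at 12.0 ± 3.04 (SD, n = 3), overlapping SLC2A8, and SLC50A1 the sixth at 2.95 ± 1.76. Since the method counts transcript ends, a level that is not divided by length may be the closer one; on that scale SLC50A1, at 16.7 ± 1.33 CPM, had a lower mean than SLC2A3, SLC2A11 and SLC2A8 in scrambled libraries, with a range that overlapped that of SLC2A8 (17.9 ± 3.32 CPM).

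As a share of all counts of the 10 genes, SLC2A1 made up 63.3%, 63.1%, 61.1% and 61.8% in scrambled and 54.8%, 57.8% and 57.2% in siGLUT2 libraries. SLC2A3 took 6.00%, 7.33%, 6.61% and 5.78% and then 16.6%, 12.9% and 10.7%. SLC50A1 took 4.28%, 4.79%, 4.02% and 4.17% and then 0.528%, 1.75% and 1.01%. For these 3 genes the groups did not overlap. The exact two-sided permutation test gave p = 0.0286 for each, the smallest that 4 against 3 libraries allow, not adjusted for the 10 shares compared. Shares sum to 100%, so they are not independent.

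**Figure D3:**
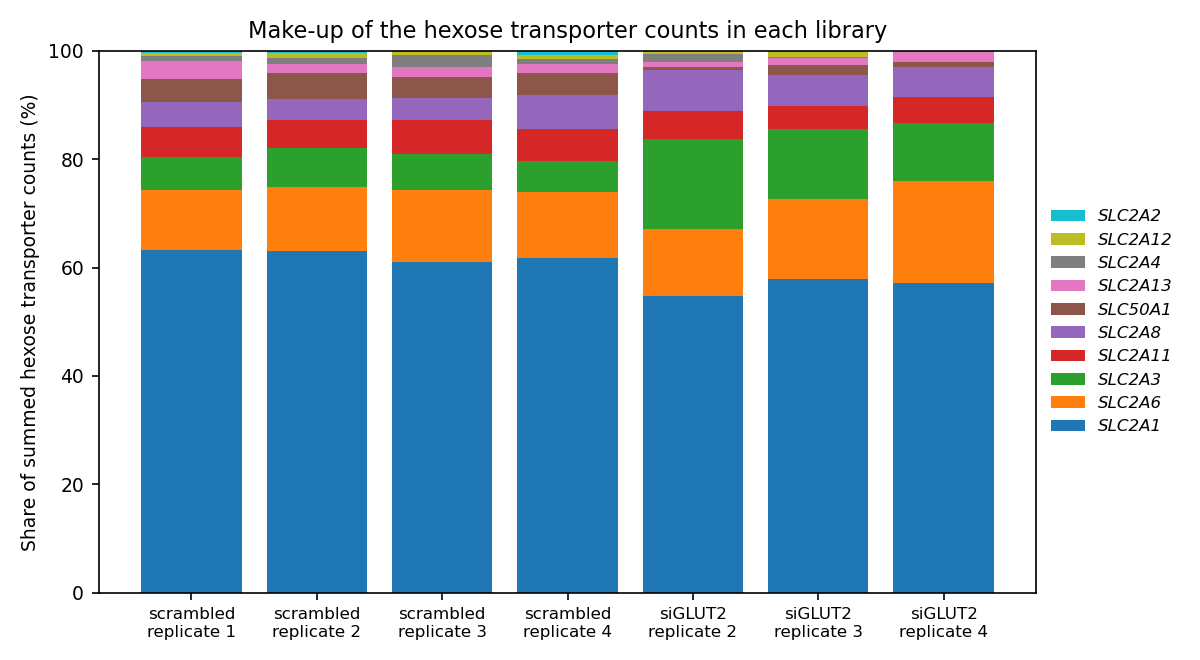
Share of each transporter in the summed counts of the 10 genes (y axis, percent) for every library (x axis). The SLC2A1 segment at the bottom covers 61.1% to 63.3% of the scrambled bars and 54.8% to 57.8% of the siGLUT2 bars, and the green SLC2A3 segment is wider in all 3 siGLUT2 bars.

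SLC2A6 held 12.0% ± 0.854 and 15.3% ± 3.2 of the summed counts, SLC2A8 4.64% ± 1.01 and 6.3% ± 1.12, and SLC2A11 5.73% ± 0.494 and 4.73% ± 0.502 (SD, n = 4 and n = 3). Each of these overlapped between groups, although with SLC2A1 left out of the denominator SLC2A11 did not (15.2% ± 0.965 and 10.9% ± 0.869). The other members, SLC2A13, SLC2A4, SLC2A12 and SLC2A2, held at most 3.35% each in any library.

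Summed over the 10 genes, the level was 376, 388, 415 and 372 CPM in scrambled and 355, 363 and 326 CPM in siGLUT2 libraries. The sum was lower in all 3 siGLUT2 libraries, with a difference of means of -39.7 CPM. Without SLC2A1 the groups overlapped, at 146 ± 10.3 (SD, n = 4) and 151 ± 10.6 CPM (SD, n = 3).

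Most other sugar carriers were scarce. Of the 5 remaining SLC2A genes, SLC2A10 was tested (0.42 ± 0.91, adjusted p = 0.777 by edgeR) and SLC2A7 and SLC2A14 had no count. In the list of 7 sodium-coupled carriers 2 were tested and 0 called by edgeR. Neither had an unadjusted p below 0.05, and DESeq2 and limma-voom called 0. SLC5A2, the kidney glucose carrier SGLT2, was at 1.41 ± 0.903 and 1.75 ± 1.35 CPM, and SLC5A3, a myo-inositol carrier, at 20.6 ± 4.05 and 20.2 ± 4.99 CPM (SD, n = 4 and n = 3), while SLC5A1 (SGLT1) had no count. Of 4 SLC45 genes 2 were tested and 0 called by edgeR, DESeq2 or limma-voom, with SLC45A3 at 11.6 ± 2.76 and 20.3 ± 10.5 CPM (adjusted p = 0.0572 by edgeR, unadjusted 0.0169).

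Hexose-phosphorylating enzymes trap sugars inside the cell. Among 10 tested genes of the list of 12, 1 rose and 1 fell, a share near or below the 28.3% called over all tested genes. Hexokinase HK1 was at 147, 151, 171 and 168 CPM in scrambled and 121, 137 and 126 CPM in siGLUT2 libraries, without overlap (-0.31 ± 0.10, adjusted p = 0.0251 by edgeR). The one that rose, GNPDA1 (0.79 ± 0.10), removes the amino group of glucosamine 6-phosphate and phosphorylates no hexose. HKDC1, at 133 ± 7.48 and 138 ± 11.5 CPM, and the gene HK2, at 15.5 ± 4.87 and 22.2 ± 4.07 CPM (SD, n = 4 and n = 3), did not pass. None of 3 tested genes for release of glucose from its phosphate was called by edgeR, DESeq2 or limma-voom, nor had any an unadjusted p below 0.05; G6PC3 was at 56.6 ± 8.62 and 43.8 ± 14.2 CPM and SLC37A4 at 16.1 ± 3.27 and 11.5 ± 3.8 CPM (SD, n = 4 and n = 3).

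Another list holds genes that carry GLUT proteins to and from the membrane. Of 23 tested, 9 fell and 2 rose, where 14.4% and 13.9% of all genes did, and their median change was -0.02. VPS35, the core of the retromer that returns GLUT1 from endosomes to the surface, was at 359, 373, 314 and 357 CPM in scrambled and 114, 106 and 122 CPM in siGLUT2 libraries. These groups lay far apart (-1.62 ± 0.10, adjusted p = 6e-11 by edgeR). Its partner VPS26A rose (0.58 ± 0.14) and VPS29 was at 0.18 ± 0.11 (adjusted p = 0.244 by edgeR), so the 3 retromer subunits did not move together.

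LNPEP, the aminopeptidase that travels with GLUT4 vesicles, fell from 92.6, 86.6, 90.9 and 94.5 to 31.4, 35.2 and 37.2 CPM (-1.40 ± 0.13, adjusted p = 7.98e-08 by edgeR). STX4, the membrane syntaxin at which GLUT4 vesicles fuse, fell from 135, 131, 133 and 125 to 79.1, 97.3 and 99.3 CPM (-0.51 ± 0.11, adjusted p = 0.00142 by edgeR). RAB8A, a small GTPase of the same route, changed by -0.62 ± 0.14 (adjusted p = 0.00167 by edgeR). Of the 11 called genes of this list, VPS35 and LNPEP held GACCTTA or ACCTTAA in the annotated 3′ UTR. Of all annotated genes, tested or not, 12.4% did. Of tested genes with a 3′ UTR of at least 50 bases, 1756 did and 9800 did not. Of the 10 called transcription factors 1, SP1, held either word there. Of the 2 called genes in the list of hexose-phosphorylating enzymes, HK1 and GNPDA1, 0 did.

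**Figure D4:**
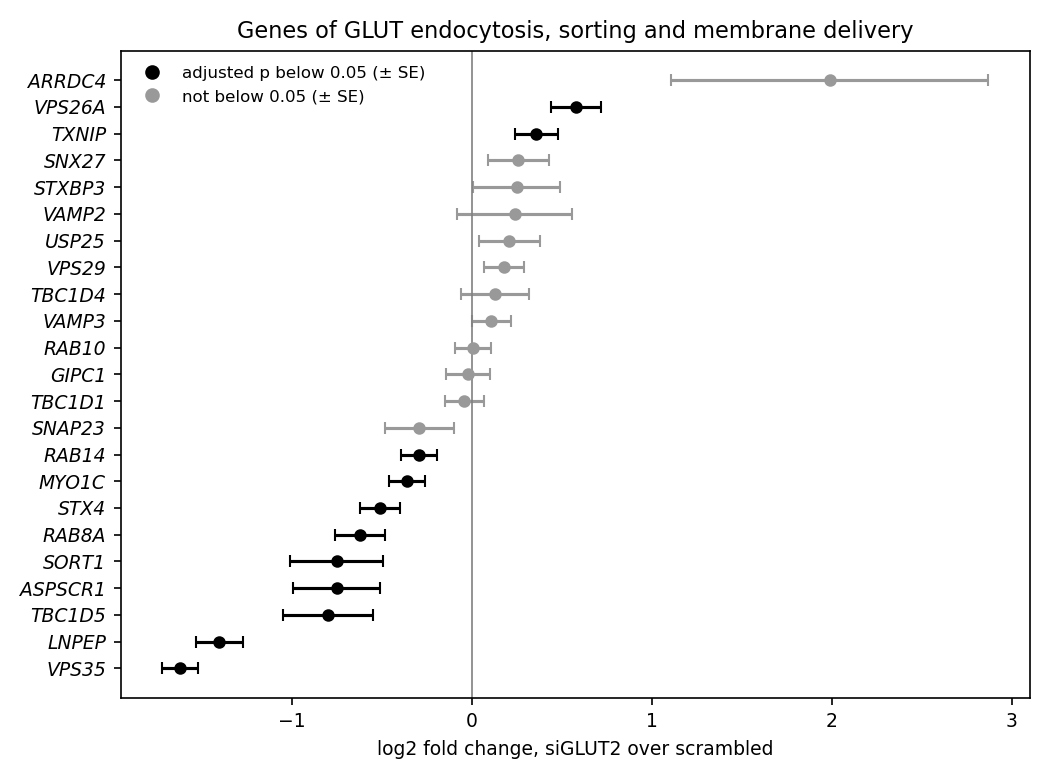
Log2 fold change of siGLUT2 over scrambled (x axis, edgeR estimate ± SE) for the 23 genes of GLUT endocytosis, sorting and membrane delivery, black where the adjusted p was below 0.05. VPS35 at -1.62 and LNPEP at -1.40 are farthest to the left, VPS26A at 0.58 and TXNIP at 0.36 are the black points on the right, and ARRDC4, a scarce transcript, has the widest bar. ARRDC4 passed the filter on low counts only through siGLUT2 libraries, so its point is a description.

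TXNIP, an arrestin that brings GLUT1 in from the surface, was at 179, 165, 119 and 161 CPM in scrambled and 230.0, 188 and 184 CPM in siGLUT2 libraries (0.36 ± 0.12, adjusted p = 0.028 by edgeR). Its relative ARRDC4 was scarce, at 0.791 ± 0.555 and 3.15 ± 0.653 CPM (SD, n = 4 and n = 3). It passed the filter on low counts only through its siGLUT2 libraries, so its test is not used and its levels are a description.

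Of 20 tested transcription factors linked to SLC2A genes, 5 rose and 5 fell, beside 13.9% and 14.4% of all tested genes. Those that rose include GATA6, which passed the filter on low counts only through its siGLUT2 libraries. It was at 0.561, 0.72, 2.53 and 1.23 CPM in scrambled and 2.39, 7.49 and 5.32 CPM in siGLUT2 libraries, so its part in this count is a description only. EPAS1, the hypoxia factor HIF-2α, fell from 102, 122, 98.4 and 92.4 to 39.2, 33.0 and 47.8 CPM (-1.37 ± 0.15, adjusted p = 3.63e-07 by edgeR). HIF1A, its relative, which drives SLC2A1 and SLC2A3 under low oxygen, fell from 272 ± 9.15 (SD, n = 4) to 204 ± 3.69 CPM (SD, n = 3) (-0.41 ± 0.09). Both had groups without overlap. PPARG, a lipid-sensing nuclear receptor, rose from 12.8, 17.5, 11.9 and 13.6 to 40.9, 40.3 and 36.3 CPM (1.49 ± 0.20, adjusted p = 7.09e-06 by edgeR), and MEF2D, of a family that activates SLC2A4 in muscle, rose by 1.2 ± 0.21. HNF4A, a nuclear receptor of liver and proximal tubule, was at 0 in scrambled and 0.048 CPM in siGLUT2 libraries on average.

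The genes whose log2 CPM followed the called transporters most closely over the 7 libraries were listed as a description. For SLC50A1 these were HNRNPD, YAP1 and ARL6IP4 (Pearson r of 0.997, 0.996 and 0.994). For SLC2A3 they were GARS1, BCL9L and HSBP1, each at 0.99, and for SLC2A1 SLC30A6, MXRA7 and PUM3 at 0.993 to 0.989. The points share libraries and groups, and among 10363 genes compared, 645, 376 and 423 reached 0.9 with SLC50A1, SLC2A3 and SLC2A1.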

How the data were processed

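RNA of 7 HK-2 libraries (125 ng each) was read single-end for 100 cycles by 3′ digital mRNA-seq, per the labels' protocols. The authors deposited raw counts per Ensembl gene in whole numbers (33694 rows, 16136 with no count); per the submitters' processing notes, STAR, HTSeq, edgeR and hg38 were used, with no versions or roles stated. Annotation release, strand setting and molecular identifiers were not given in the sources used here. All 7 value columns matched a sample title.

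Counts were fitted with edgeR 4.0.16 in R 4.3.3, with TMM scaling, filterByExpr (at least 10 counts, 15 in total), robust glmQLFit and glmQLFTest, siGLUT2 against scrambled, over the whole table. Scripts were tested on simulated data. Shares were compared by exact permutation of the 7 libraries. Alternatives were DESeq2 1.42.0, limma-voom (limma 3.58.1), other scalings and filters, an adjusted p of 0.01, a replicate block, each library left out, and, for shares, transcript length and other denominators.

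Named besides the 10 transporters were, per list, up to 4 called genes with the smallest adjusted p (otherwise 2 with the highest CPM) and, for called transporters of at least 5 CPM, the 3 genes with the highest correlation. Other genes named (SLC2A5, SLC2A9, VPS29, ARRDC4, HNF4A, further list members, markers and overlapping genes) were chosen after their values were seen. Members and lists were chosen with earlier results of these data known. Positions and transcripts are from GENCODE release 29 (GRCh38), the build of hg38. Some genes of the lists are not reported here by name.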

Additional observations from a re-analysis of the deposited data

Results flagged for a closer look

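The 21 sets of values checked were the CPM and share of each transporter and the summed CPM in the 4 scrambled libraries. In 3 of them 1 library lay far from the others. Chance gives about 1 in 20 per set, but these sets are not independent. CPM and share come from the same counts, and SLC2A4 in scrambled replicate 3 entered by both. SLC2A4 was at 9.61 CPM and 2.31% of the summed counts in scrambled replicate 3, where the other 3 libraries lay at 3.70 to 4.44 CPM and 0.995% to 1.14%. SLC2A13 took 3.35% of the summed counts in scrambled replicate 1 and 1.58% to 1.77% in the others.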

How the results depend on the processing

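The count of 1 higher transporter was the same under every alternative run. The count of lower transporters, here with SLC2A2 in it, was 3. It became 2 to 4 with each library left out, 2 at an adjusted p of 0.01, 1 with the replicate block and 3 otherwise. The count of 4, without siGLUT2 replicate 2, includes SLC2A4. SLC2A2, and SLC2A4 in that setting, passed the filter through scrambled libraries alone, so their part in these counts is a description only. The block used the shared replicate numbers 2 to 4. Same-numbered libraries did not deviate together (correlations of 0.015, 0.0286 and -0.0236 over 10363 genes), which cannot show whether they shared a culture or day. With the block, SLC2A1 had an adjusted p of 0.0505 by edgeR and was not called, and SLC2A2 was not called either. Called genes over the whole table went from 3509 to 2649. The filter removed SLC2A2 without scrambled replicate 1, 2 or 4, so it has no value there. SLC2A12 reversed to 0.06 without scrambled replicate 2 and to 0.37 without siGLUT2 replicate 4 (its share difference to 0.0584 and 0.246 percentage points); over left-out libraries its log2 values ran from -1.13 to 0.37 and its share differences from -0.31 to 0.246. The cause was not tested. Per transcript length, the SLC2A1 share differed by -3.37 instead of -5.71 percentage points. The summed CPM difference was -47.1 to -28.7 with each library left out. In the other lists 6 to 8 genes were higher and 10 to 17 lower with each library left out (8 and 15 with all). The 8 include GATA6, which passed the filter only through siGLUT2 libraries. Low counts limit SLC2A2, SLC2A4 and SLC2A12. One left-out library also moved changes that did not pass the test: SLC2A13 to -0.40 without scrambled replicate 1, SLC2A6 to 0.06 without siGLUT2 replicate 4 and SLC2A8 to 0.13 without siGLUT2 replicate 2.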

Other observations

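SLC2A1-DT, listed as SLC2A1-AS1 in GENCODE, is a noncoding gene on the strand opposite SLC2A1 that overlaps 128 of its exon bases. It was counted 8, 8, 10 and 4 times in scrambled replicates 1 to 4 and 1, 0 and 0 times in siGLUT2 replicates 2 to 4. It was below the filter and has no test, and with no strand setting given its reads in the shared bases cannot be told apart from those of SLC2A1. YBX2, which shares 6 exon bases with SLC2A4, was counted 158, 222, 174 and 161 times in scrambled and 86, 156 and 201 times in siGLUT2 libraries (-0.11, adjusted p = 0.765 by edgeR).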
